A study of Mus musculus with 7 samples.

Results

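The 10 growth plate genes described here were followed through all 6 deposited peak lists, out of 18089 protein-coding genes that could be placed in both genome builds of those lists. They were taken by name for their roles in the growth plate, and no measured value enters the rule. Earlier results of these data were known when they were chosen. Ihh, Pthlh, Pth1r, Col10a1, Mmp13 and Mef2c made up a hypertrophy group of 6 genes, and Ptch1, Gli1, Gli2 and Gli3 a Hedgehog group of 4. For each gene, every peak was collected that lay within 1 kb of the TSS, in the gene body, or within 100 kb on either side of the gene. The question was whether these chondrocytes carried active marks at hypertrophy genes or H3K4me2 alone, and what fibroblasts showed at the same places.

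The peaks came from ChIP-Seq of primary chondrocytes that were isolated by collagenase from rib cartilage of newborn mice. H3K27ac was profiled in 2 chondrocyte libraries (replicates 1 and 2) and H3K4me2 in 1. Primary dermal fibroblasts from the dorsal skin of newborn mice, with 1 H3K27ac library, served as the control cell type. A further H3K27ac library came from chondrocytes labelled WT, and another from chondrocytes of the genotype E160(delta/delta);E308(delta/delta), in which both copies of the Sox9 enhancers E160 and E308 were removed by genome editing of the germline. Sox9 is the transcription factor that establishes and maintains chondrocytes. The labels give no genotype or treatment for the other libraries, and an input library is not analysed here.

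Hypertrophy is the step at which growth plate chondrocytes stop dividing, enlarge and prepare the matrix for mineralization. Cells entering it secrete Indian hedgehog (Ihh), which binds the receptor Ptch1 and acts through the Gli transcription factors. Ihh also raises PTHrP, the product of Pthlh, in resting chondrocytes, and PTHrP acts back through its receptor Pth1r to hold chondrocytes in the dividing state. H3K27ac is found at active promoters and enhancers, whereas H3K4me2 is found at promoters and enhancers whether or not they are active.

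Each group had 1 library, or 2 for chondrocyte H3K27ac, so no group difference was tested. Member counts are given beside the share of all 18089 genes with the same mark, and the 95% exact (Clopper-Pearson) intervals of shares cover counting error only. The lists held 19458 to 66369 peaks, with H3K4me2 the longest and fibroblast H3K27ac the shortest, and read depth is unknown. A peak's strength is given as its rank by score within its own list, so that a peak in the top 1% is among the highest scoring, since scores were not comparable between lists. Replicate 2 fitted GRCm38 gene positions, with 43.1% of promoters marked against 6.24% with mm9 positions, and the other lists fitted mm9. The replicate 2 peaks were therefore placed by their distance from the gene, within 1 kb. Of 12 chondrocyte markers, 6 had promoter H3K27ac in replicate 1, 10 in replicate 2, in WT and in deletion cells, and 1 in fibroblasts, where 5 of 8 dermal fibroblast markers were marked. The chondrocyte marker acetylated in fibroblasts was Sox9. At the 5′ end, replicate 1 had no peak at Sox9, Col2a1, Col11a1, Matn1, Sox5 or Sox6. In the chondrocyte H3K27ac lists, between 3 and 6 of those 8 fibroblast markers were marked. Col1a1, the fibroblast marker of the study, and Col1a2 were marked in every chondrocyte H3K27ac list and not in fibroblasts. Prrx1 was marked in replicate 2, WT and deletion cells and not in fibroblasts, whereas Dpt and Fbln1 were marked in fibroblasts alone. Of 19 markers of osteoblasts, macrophages, endothelium, muscle and keratinocytes, promoter H3K27ac was found at Sp7 in WT and Tek in fibroblasts alone. Both E160 and E308 held a WT peak and no peak in the deletion list.

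At the 5′ ends of the genes, H3K27ac was found at the promoters of Gli2 and Gli3 alone, and H3K4me2 at 8 of 10. The 2 acetylated promoters were the same in all 5 H3K27ac lists. Over all genes, 44.2% of promoters were marked in replicate 1, 43.1% in replicate 2, 50% in WT, 47.1% in deletion cells and 47.5% in fibroblasts. The members with H3K4me2 were all but Pth1r and Mef2c, beside 66.3% of all genes. The promoters of Ihh, Pthlh, Col10a1, Mmp13, Ptch1 and Gli1, 6 of 10, had H3K4me2 and no H3K27ac in any of the 4 chondrocyte lists, and 16.0% of all genes were in this class. No fibroblast peak was found at these 6 promoters either. When every list was reduced to its 19458 highest-scoring peaks, the length of the fibroblast list, 3 remained in the class, Ihh, Pthlh and Ptch1. The share of all genes in the class at that length is not given here, so this count has no share to stand beside. All 6 lists marked 2 of 10 promoters, beside 36.1% of all genes. In these bulk samples, a mark carried by few cells cannot be told apart from a weaker mark in all cells.

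The 5′ end of the gene model was not where every gene was acetylated. When every annotated start was considered, Pth1r, Mef2c and Ptch1 joined Gli2 and Gli3, so that each H3K27ac list marked 5 of 10 genes. The shares of all genes were then 46.6% for replicate 1, 46.0% for replicate 2, 52.3% for WT, 49.4% for deletion cells and 49.9% for fibroblasts. H3K4me2 marked all 10 genes at some start, beside 68.9% of all genes. Ihh, Pthlh, Col10a1, Mmp13 and Gli1 still had H3K4me2 alone in chondrocytes, 5 of 10 genes beside 16.1% of all genes, and 5 of 10 were marked in all 6 lists, beside 39.6%. No member was acetylated in both chondrocyte replicates and unmarked in fibroblasts, by the 5′ end (1.65% of all genes) or by any start (1.63%), and none was acetylated in fibroblasts alone (1.77%). At gene starts, therefore, the H3K27ac calls of the 10 genes were identical in chondrocytes and fibroblasts.

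**Figure D1:**
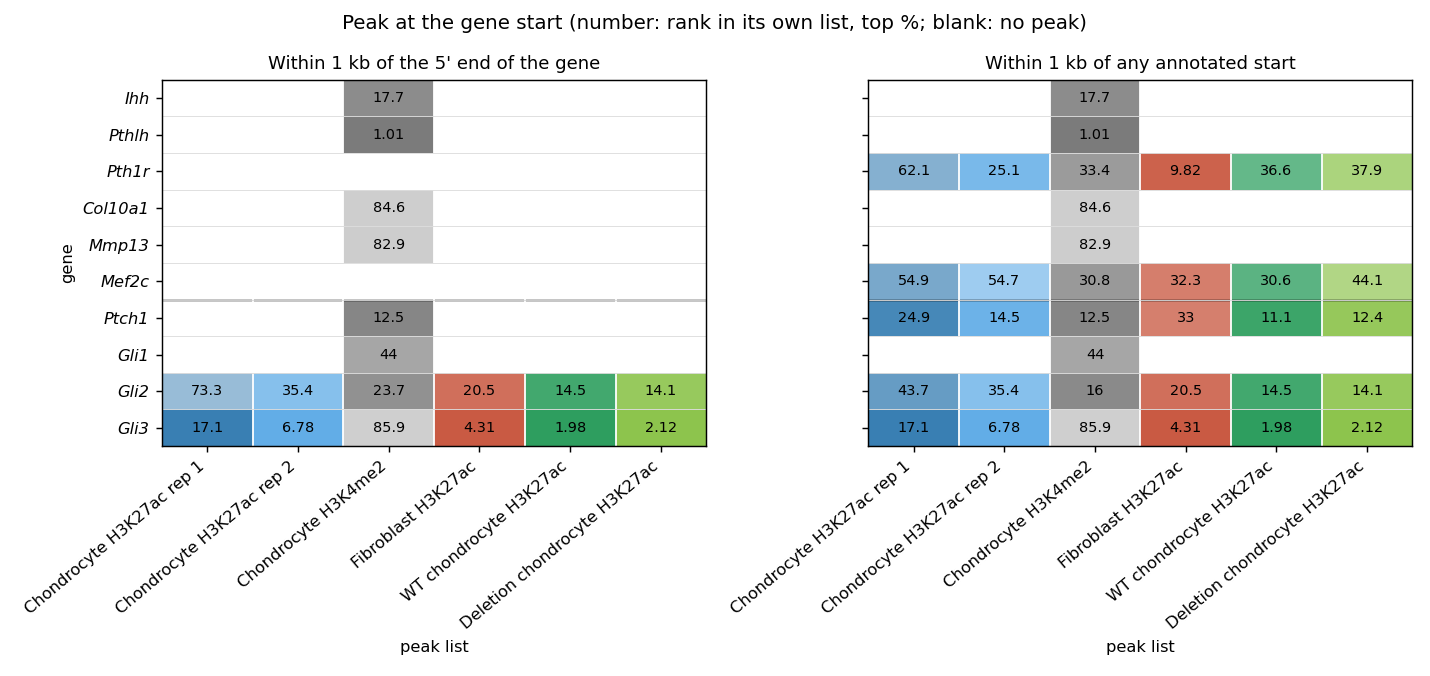
Presence of a peak within 1 kb of the 5′ end (left) or of any annotated start (right) of the 10 genes (rows) in the 6 peak lists (columns), with the rank of the best-scoring peak in its own list in percent, where a small number is a high rank and a blank is no peak. Ihh, Pthlh, Col10a1, Mmp13 and Gli1 have an H3K4me2 peak only in both panels, and Pth1r, Mef2c and Ptch1 gain H3K27ac in all 5 lists on the right.

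The promoters with H3K4me2 alone differed in base composition. Gli1 had no RefSeq promoter in the reference used, and that of Ptch1 lay 7.72 kb into the gene. The other 4 are shown here beside the acetylated promoter of Gli3. Each is the 250 bases before the RefSeq start in GRCm38, on the gene's strand, with capitals for a match to any of 4 motifs on either strand (GLI GACCACCCA, RUNX TGTGGTT, SOX ACAATGG and AP-1 TGANTCA).
Ihh, GRCm38 chr1:74951673-74951922, minus strand: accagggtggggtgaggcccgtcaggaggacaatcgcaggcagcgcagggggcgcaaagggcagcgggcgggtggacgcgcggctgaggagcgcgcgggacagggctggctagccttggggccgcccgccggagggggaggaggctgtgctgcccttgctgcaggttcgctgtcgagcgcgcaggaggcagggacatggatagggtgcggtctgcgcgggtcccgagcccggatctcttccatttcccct
Pthlh, GRCm38 chr6:147264014-147264263, minus strand: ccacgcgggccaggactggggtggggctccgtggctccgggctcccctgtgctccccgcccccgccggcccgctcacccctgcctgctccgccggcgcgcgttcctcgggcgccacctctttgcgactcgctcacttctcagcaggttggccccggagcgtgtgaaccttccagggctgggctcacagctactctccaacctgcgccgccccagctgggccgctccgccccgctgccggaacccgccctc
Col10a1, GRCm38 chr10:34389731-34389980, plus strand: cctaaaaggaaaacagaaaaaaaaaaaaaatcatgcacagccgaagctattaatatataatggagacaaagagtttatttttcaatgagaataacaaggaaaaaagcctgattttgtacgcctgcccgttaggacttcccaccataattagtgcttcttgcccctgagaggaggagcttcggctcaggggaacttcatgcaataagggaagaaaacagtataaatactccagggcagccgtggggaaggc
Mmp13, GRCm38 chr9:7272264-7272513, plus strand: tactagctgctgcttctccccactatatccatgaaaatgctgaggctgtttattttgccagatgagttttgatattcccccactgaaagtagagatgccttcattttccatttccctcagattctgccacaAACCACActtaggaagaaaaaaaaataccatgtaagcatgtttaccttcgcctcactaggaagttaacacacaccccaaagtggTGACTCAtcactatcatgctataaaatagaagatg
Gli3, GRCm38 chr13:15463473-15463722, plus strand: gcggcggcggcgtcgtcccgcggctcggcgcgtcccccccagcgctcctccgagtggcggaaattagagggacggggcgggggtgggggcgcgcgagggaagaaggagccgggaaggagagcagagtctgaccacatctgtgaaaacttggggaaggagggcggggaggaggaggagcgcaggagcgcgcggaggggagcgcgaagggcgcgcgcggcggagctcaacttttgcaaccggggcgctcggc

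The Ihh, Pthlh and Gli3 promoters were rich in CpG dinucleotides, that of Mmp13 was poor, and that of Col10a1 lay between. Fewer CpGs were found in 88.0% of RefSeq promoters for Ihh, 90.4% for Pthlh, 96.5% for Gli3, 44.4% for Col10a1 and 7.87% for Mmp13. Ihh had 24 CpGs in the 250 bases, Pthlh 26 and Gli3 34, whereas Col10a1 had 5 and Mmp13 had 1. The median was 12.0 CpGs over 1882 genes with H3K4me2 alone (quartiles, 6 and 19), 18.0 over 5115 genes marked in all 6 lists and 2.0 over 4151 genes marked in none. Ihh and Pthlh thus lay above the upper quartile of their class, and Col10a1 and Mmp13 below its lower quartile. The Mmp13 promoter held a RUNX match starting 119 bases before the TSS and an AP-1 match starting 35 bases before it. The RUNX letters were in 4.4% of 32851 RefSeq promoters and the AP-1 letters in 6.75%. A GLI match was in 0.225% of promoters and a SOX match in 3.02%, and neither was in any of the 13 RefSeq promoters of 9 members. Beside those in Mmp13, the promoters held 1 match, for AP-1, at an internal Mef2c start 69.6 kb into the gene.

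Ihh, the ligand made by cells entering hypertrophy (mm9 chr1:74991891-74998246, minus strand), had 14 H3K4me2 peaks in its window and no H3K27ac peak in any list. Its promoter peak reached from −0.649 to 4.01 kb relative to the TSS. That peak was in the top 17.7% of the H3K4me2 list by score and, at 4660 bp, in the top 1.22% by width. Upstream lay 5 peaks, 4 of them in introns of Nhej1, the neighbouring gene that is known to hold Ihh enhancers, between 63.7 and 88.7 kb from the TSS and ranked in the top 22.5% to 85.8%. The other, 13.3 kb upstream, was in the top 17.8%. Downstream lay 8 peaks, and the best ranked peak of the window, in the top 4.46%, was among them, at the start of Cryba2 58.4 kb away. Of all genes, 30.9% had as many H3K4me2 peaks or more in their window, and 18.5% had as many or more per 100 kb. No H3K27ac was thus called over the 206 kb window in the chondrocyte lists or in fibroblasts, while H3K4me2 was profiled in 1 chondrocyte library only.

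Pthlh, which encodes PTHrP (mm9 chr6:147200623-147212689, minus strand), showed the same absence with far fewer peaks. Its 3 H3K4me2 peaks were the promoter peak and 2 weak peaks, 67.6 kb upstream and 64.6 kb downstream, in the top 71.1% and 68.0%. The promoter peak, from −0.523 to 1.303 kb relative to the TSS, was in the top 1.01% of the list, the highest H3K4me2 rank at any of the 10 genes. No H3K27ac peak lay within 100 kb in any of 5 lists. Ihh and Pthlh were the 2 members with H3K4me2 and no H3K27ac in the whole window, a class that held 4.86% of all genes.

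The PTHrP receptor gene Pth1r (mm9 chr9:110624592-110649649, minus strand) was acetylated in every list, at its internal starts 3.46 and 4.54 kb into the gene model. The peak over them was in the top 62.1% of the list for replicate 1, 25.1% for replicate 2, 36.6% for WT, 37.9% for deletion cells and 9.82% for fibroblasts. By rank it was highest in fibroblasts, where it was also widest, at 3163 bp against 936 to 1444 bp in the chondrocyte lists. Its fold enrichment over the local background was 9.72 in replicate 2, 10.2 in WT and 8.28 in deletion cells, and none was given for the other lists. Further into the gene, 2 intronic peaks 10.2 and 14.0 kb from the TSS were present in all 4 chondrocyte lists and had no fibroblast peak. At 14 kb the ranks were in the top 53.1% of the list for replicate 1, 64.3% for replicate 2, 44.1% for WT and 70.1% for deletion cells. In the other direction, a weak fibroblast peak 43.1 kb upstream, in the top 85.3%, overlapped no chondrocyte H3K27ac peak. A WT peak and a deletion peak lay within 1 kb of it. Replicate 2 alone had a peak near the 5′ end, from −1.429 to −1.158 kb, in its top 98.8%.

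Col10a1 (mm9 chr10:34109787-34116891, plus strand) and Mmp13 (mm9 chr9:7272514-7283333, plus strand) encode the collagen of hypertrophic cartilage and a collagenase of its late stage. Their promoters had weak H3K4me2 and no H3K27ac. The Col10a1 promoter peak of 969 bp was in the top 84.6% of the H3K4me2 list and the Mmp13 promoter peak of 595 bp in the top 82.9%. Of the 6 H3K4me2 peaks in the Mmp13 window, the promoter peak was the 1 without H3K27ac in replicate 1, WT or deletion cells. No H3K27ac peak lay in either gene body in any list. Those in the Col10a1 window that all 5 H3K27ac lists shared lay at the starts of other genes, Tspyl4 92.2 kb upstream, Nt5dc1 28.5 kb downstream and Frk 94.2 kb downstream. The shared peak of the Mmp13 window, 88.0 kb upstream, lay at the neighbouring starts of Dcun1d5 and Dync2h1 and was in the top 13%, 13.4%, 12.4%, 17.6% and 28.8% of replicate 1, replicate 2, WT, deletion and fibroblast peaks.

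A few peaks near the hypertrophy genes appeared in 1 of the 5 H3K27ac lists only. Replicate 1 had a peak 8.938 to 9.522 kb from the Col10a1 TSS, beyond the end of the gene, in its top 89.9%. It also had peaks 65.508 to 67.015 kb and 87.367 to 88.041 kb downstream of Mmp13, in its top 66.4% to 75.4%. None of these 4 peaks was found in replicate 2, WT, deletion cells or fibroblasts. WT had 2 peaks of its own 89.877 to 90.867 kb downstream of the Col10a1 TSS and 1 peak at a second Dync2h1 start upstream of Mmp13, in its top 58.0% to 79.5%.

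Mef2c, a transcription factor that drives chondrocyte hypertrophy (mm9 chr13:83643033-83806684, plus strand), had 23 H3K4me2 peaks and no peak within 1 kb of its 5′ end. It was acetylated around an internal start 20.9 kb into the mm9 gene model and 19.6 kb into the GRCm38 model. The best peak there was in the top 54.9% of the list for replicate 1, 54.7% for replicate 2, 30.6% for WT, 44.1% for deletion cells and 32.3% for fibroblasts. A second, weaker peak beside it, 21.1 kb from the TSS in WT, was also called in replicate 1 and in deletion cells and not in fibroblasts, and replicate 2 had a single peak within 1 kb of both. Intronic peaks 99.42 to 101.41 kb from the TSS were found in all 5 H3K27ac lists, and the best ranked of them was in the top 31.6% of the list for replicate 1, 42.9% for replicate 2, 38.6% for WT, 47.8% for deletion cells and 93.4% for fibroblasts. Of the 23 H3K4me2 peaks, 15 had no H3K27ac in replicate 1, WT or deletion cells, and these included all 7 peaks downstream of the gene.

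**Figure D2:**
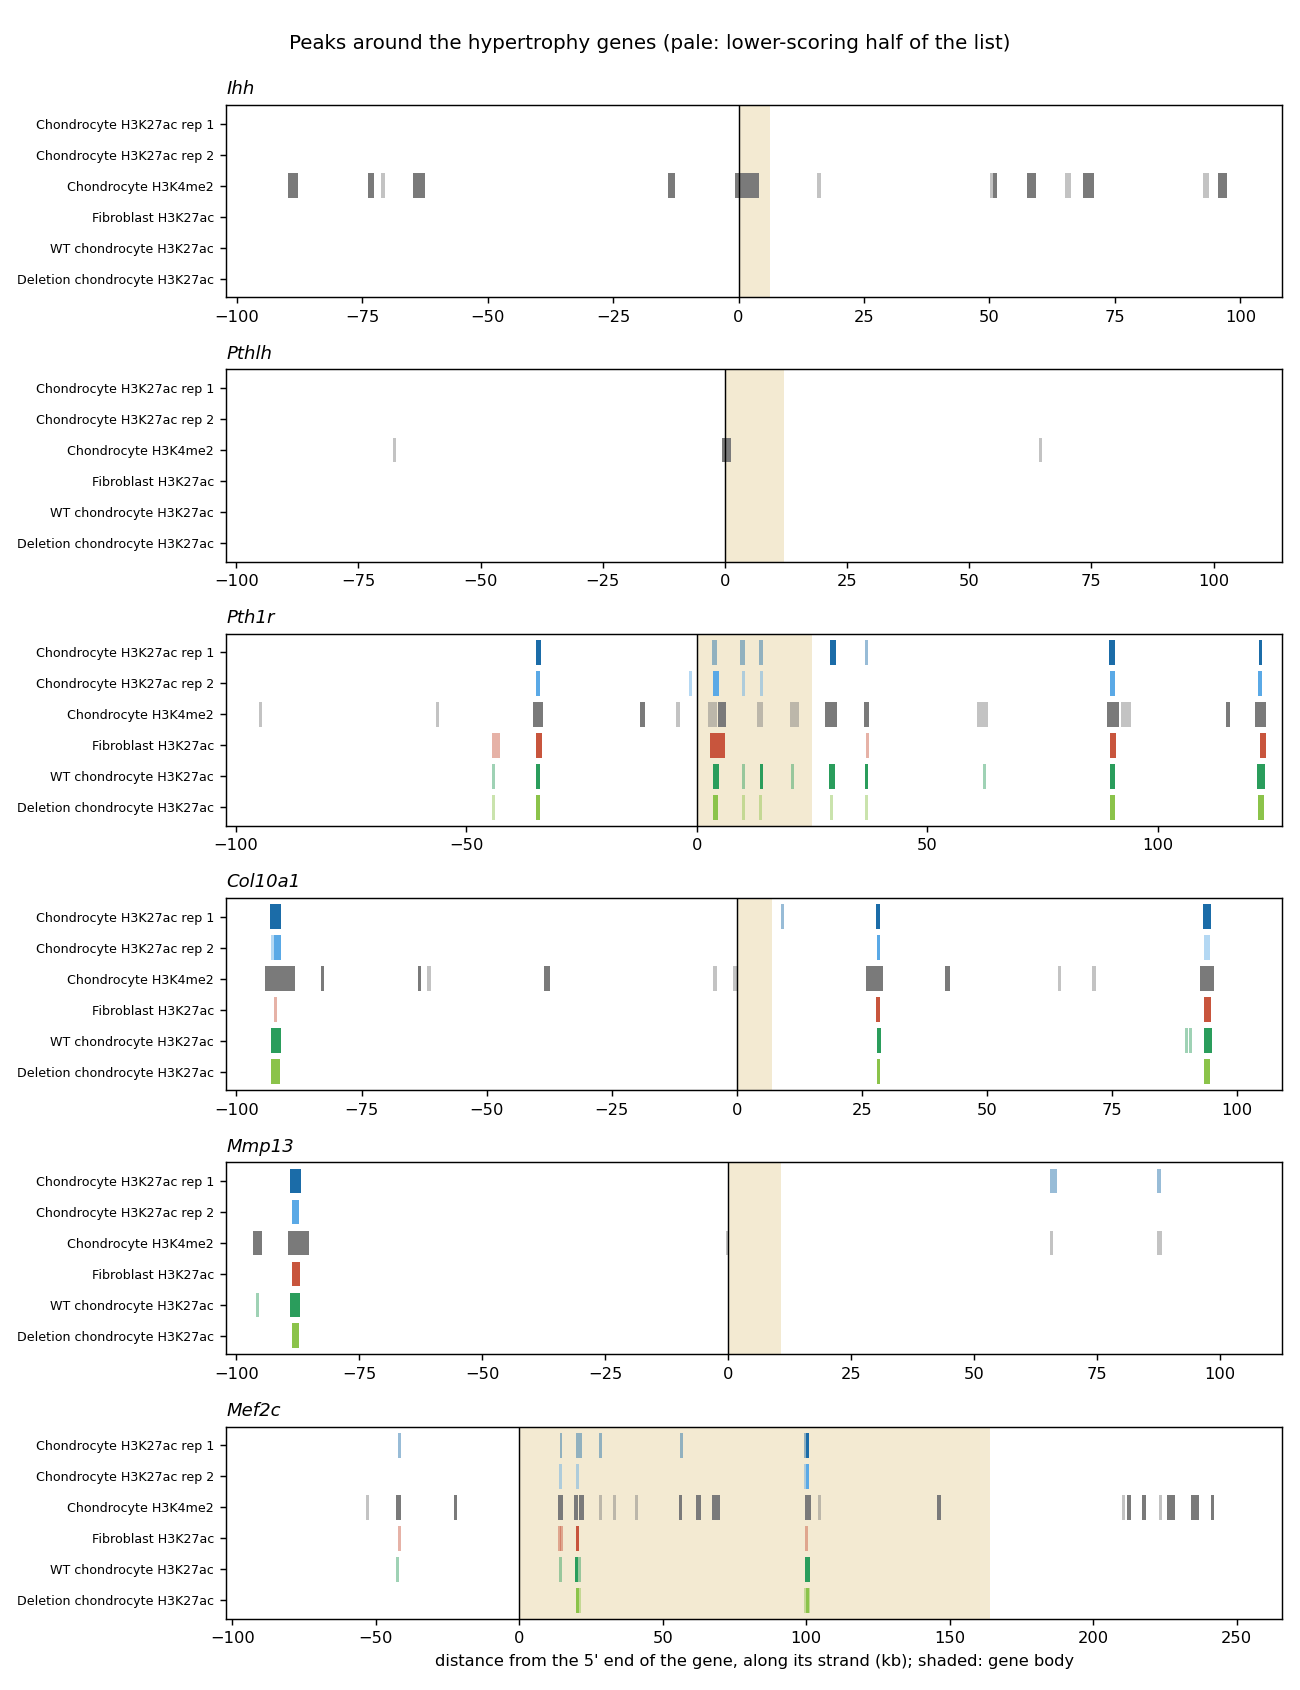
Peaks of the 6 lists (rows in each panel) around the 6 hypertrophy genes, by distance in kb from the 5′ end along the gene's strand. Shading marks the gene body, pale bars are peaks in the lower-scoring 50% of their list, and narrow peaks are drawn at a minimum width. Ihh and Pthlh have H3K4me2 bars alone, and Col10a1 and Mmp13 have no H3K27ac bar in the gene body.

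Ptch1 encodes the Hedgehog receptor and is itself a Hedgehog target (mm9 chr13:63610261-63674474, minus strand). Its 5′ end had a strong H3K4me2 peak, in the top 12.5%, and no H3K27ac. The acetylated start lay further in, at annotated starts 7.65 and 8.84 kb into the mm9 gene model and 7.72 kb into the GRCm38 model. The peak over them was 3220 to 3912 bp wide in all 5 lists. It was in the top 24.9% of the list for replicate 1, 14.5% for replicate 2, 11.1% for WT, 12.4% for deletion cells and 33.0% for fibroblasts. The H3K4me2 peak over the same starts was among the widest of its list, with 7175 bp and a width in the top 0.0708%. A smaller peak between 4.653 and 5.926 kb into the gene was called apart from it in replicate 2, WT and deletion cells, in their top 27%, 19.4% and 24.3%. An intronic peak 37.37 to 38.496 kb into the gene was in the top 48.3% of replicate 1, next to a WT peak that ended at its border and was in the top 68.7%, and replicate 2, deletion cells and fibroblasts had no peak there.

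Gli1, the Gli factor whose transcription is the usual readout of Hedgehog signalling (mm9 chr10:126766945-126778645, minus strand), had H3K4me2 alone at its promoter. The promoter peak, from −1.151 to 0.594 kb relative to the TSS, was in the top 44.0%, and a second H3K4me2 peak, 1.404 to 2.909 kb into the gene, was in the top 16.3%. The best ranked H3K4me2 peak of the window, 14.114 to 15.804 kb from the TSS and beyond the end of the gene, was in the top 5.38% and had no H3K27ac. Within the gene, H3K27ac was called in WT alone, inside the second H3K4me2 peak, as a peak of 222 bp in the top 73.8%. The 5 WT peaks of the window that all chondrocyte lists shared lay at the starts of R3hdm2, Mars, Ddit3, Mbd6 and Dctn2. The one at Mars, 30.2 kb from the Gli1 TSS, was among the strongest peaks of each chondrocyte list, in the top 0.438% of the list for replicate 1, 0.577% for replicate 2, 0.231% for WT and 1.2% for deletion cells, and in the top 7.63% in fibroblasts.

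Gli2 and Gli3, the Gli factors through which Hedgehog signals first reach the nucleus, were acetylated at their promoters in every list. The Gli3 promoter (mm9 chr13:15555068-15821859 for the gene, plus strand) was in the top 17.1% of the list for replicate 1, 6.78% for replicate 2, 1.98% for WT, 2.12% for deletion cells and 4.31% for fibroblasts. Its fold enrichment was 18.9 in replicate 2, 43.4 in WT and 32.7 in deletion cells. The peak spanned 5688 bp in replicate 1, 3596 bp in replicate 2, 6656 bp in WT and 5526 bp in deletion cells, and 2176 bp in fibroblasts. The H3K4me2 peak at this promoter was weak, in the top 85.9%, and ended at −0.04 kb. The Gli2 promoter (mm9 chr1:120730709-120950196 for the gene, minus strand) was in the top 73.3% of the list for replicate 1, 35.4% for replicate 2, 14.5% for WT, 14.1% for deletion cells and 20.5% for fibroblasts, and ranked lower than that of Gli3 in all 5 lists.

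**Figure D3:**
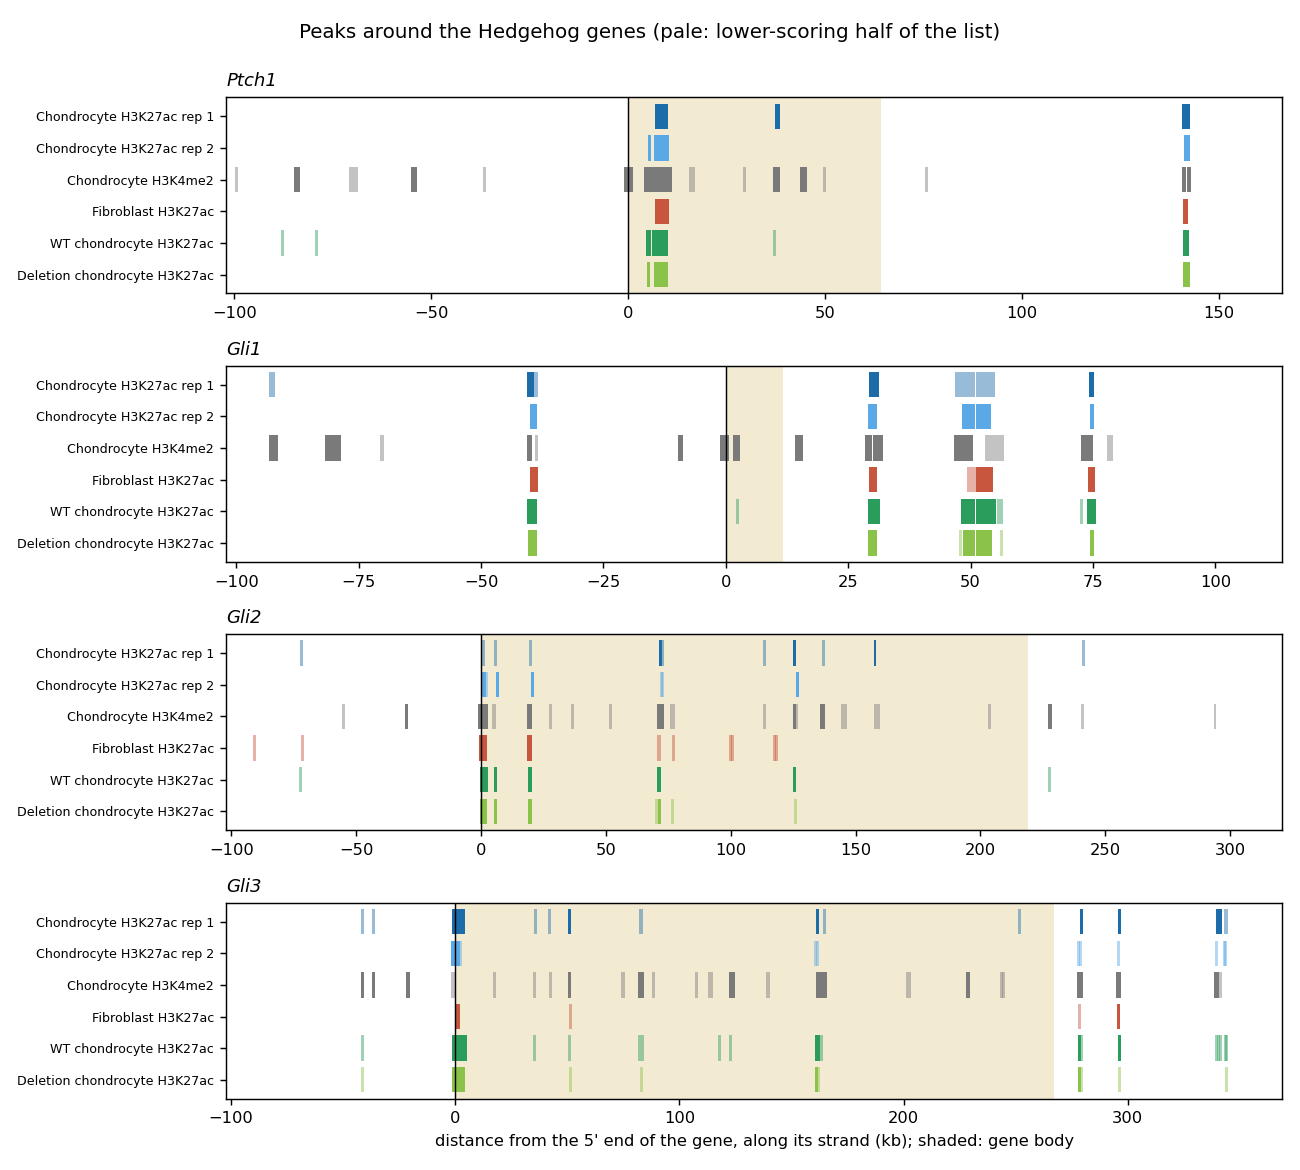
Peaks of the 6 lists (rows in each panel) around the 4 Hedgehog genes, by distance in kb from the 5′ end along the gene's strand. Shading marks the gene body, pale bars are peaks in the lower-scoring 50% of their list, and narrow peaks are drawn at a minimum width. Gli2 and Gli3 have H3K27ac bars at the 5′ end in all 5 lists, Ptch1 has them inside the gene, and Gli1 has none there but for 1 pale WT bar.

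Over gene bodies, 5 members carried H3K27ac in replicate 1 (49.7% of all genes), replicate 2 (48.4%), deletion cells (51.2%) and fibroblasts (52.5%), and 6 in WT (55.2%), where Gli1 was added. H3K4me2 lay in the body of all 10 (73.2% of all genes). With 100 kb on each side, 8 of 10 had H3K27ac in replicate 1 (82.5% of all genes), replicate 2 (78.4%), WT (82.3%), deletion cells (80.2%) and fibroblasts (81.9%), and all 10 had H3K4me2 (90.2%). The windows held 60 peaks of replicate 1, 41 of replicate 2, 64 of WT, 45 of deletion cells, 37 of fibroblasts and 150 of H3K4me2. Gli3 had the most in each chondrocyte list, with 14, 10, 19, 10 and 25 peaks in replicate 1, replicate 2, WT, deletion cells and H3K4me2, and a longer gene has a longer window. Per 100 kb, the median member had 5.92 H3K4me2 peaks, against 4.26 over all genes. For H3K27ac the medians were 2.06 against 1.68 in replicate 1, 1.4 against 1.31 in replicate 2, 1.97 against 1.93 in WT, 1.41 against 1.47 in deletion cells and 1.11 against 1.38 in fibroblasts.

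The share of H3K4me2 peaks without acetylation in these windows was near that of the whole list. Of 150 H3K4me2 peaks, 96 overlapped no replicate 1 peak, or 64.0% (95% CI, 55.8–71.7), and 64.8% of the whole list had none. When WT and deletion peaks were also counted as partners, 86 of 150 were without H3K27ac, or 57.3% (49.0–65.4), against 54.0% of the list. By group, the share was 64.9% (52.9–75.6) around the hypertrophy genes and 50% (38.3–61.7) around the Hedgehog genes, with overlapping intervals. By gene it ran from 1 of 6 peaks at Mmp13 to all 14 at Ihh and all 3 at Pthlh. Ptch1 and Col10a1, with 12 of 16 and 9 of 12, were next.

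**Figure D4:**
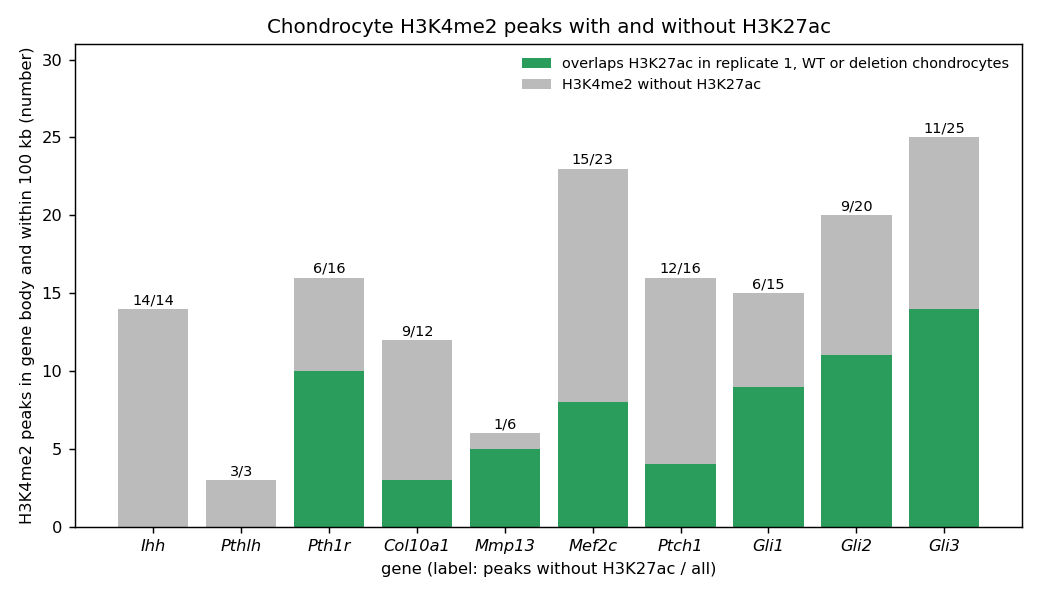
Number of chondrocyte H3K4me2 peaks in the gene body and within 100 kb (y axis) of each of the 10 genes (x axis), divided into peaks that overlap H3K27ac of replicate 1, WT or deletion chondrocytes (green) and peaks that do not (grey). All 14 peaks at Ihh and all 3 at Pthlh are grey.

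The chondrocyte peaks of the windows lacked a fibroblast peak about as often as those of the whole lists. Of 60 replicate 1 peaks in the windows, 30 had no fibroblast peak, or 50% (36.8–63.2), and 48.3% of the whole list had none. The share in the windows was 76.7% when overlaps had to cover 50% of both peaks, a setting at which the share of the whole list is not given here. At Gli3, 11 of 14 had no fibroblast peak, or 78.6% (49.2–95.3), and all but 1 of the 14 had no start within 1 kb. Over all replicate 1 peaks without a start within 1 kb, 73.8% had no fibroblast peak. The chondrocyte replicates also differed, since 36 of the 60 replicate 1 peaks had a replicate 2 peak and 40 of 41 replicate 2 peaks had a replicate 1 peak. Replicate matches allowed 1 kb by distance from the TSS, a looser rule than the 1 bp overlap used for fibroblasts. The replicate 1 list was also the longer, with 25597 peaks against 20453, and no replicate match over the whole lists is given here. So that no chondrocyte H3K27ac call rested on 1 library, WT peaks were kept that were found in all 4 chondrocyte H3K27ac lists. Of 64 WT peaks, 31 were kept. The fibroblast and H3K4me2 calls at these peaks still rested on 1 library each. Of the 31, 12 lay at the start of another gene, and all 12 had a fibroblast peak. Another 7 lay at a start of the member itself, and 6 of them had one. The remaining 12 had no start within 1 kb, and 8 of these had no fibroblast peak. Over all WT peaks without a start within 1 kb, 76.8% had none, but these were not restricted to peaks found in all 4 chondrocyte lists. The shares of all WT peaks kept by that rule, at a start or away from it, are not given here. The 9 without a fibroblast peak belonged to Pth1r (2), Mef2c (1), Gli2 (2) and Gli3 (4), and none to Col10a1, Mmp13, Ptch1 or Gli1. The Mef2c peak and the Gli3 peak at 279 kb, 2 of the 9, lay within 1 kb of a fibroblast peak that they did not overlap, a distance at which a replicate 2 peak was counted as shared. H3K4me2 was present at 29 of the 31.

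**Figure D5:**
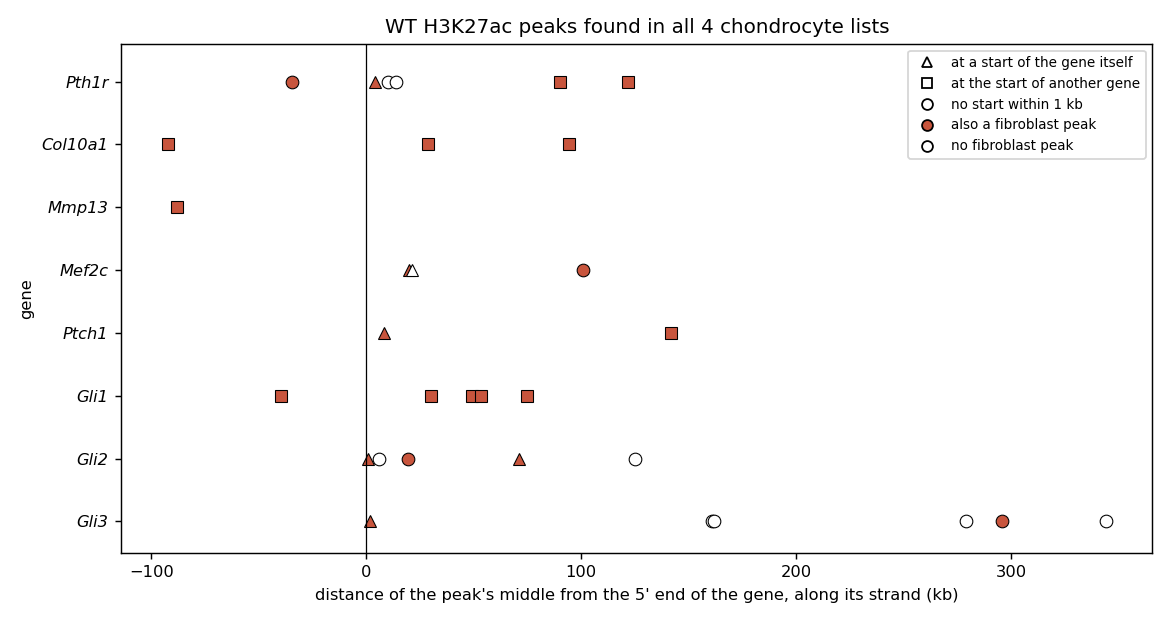
The 31 WT H3K27ac peaks in the windows of 8 genes that were found in all 4 chondrocyte lists, by the distance of their middle from the 5′ end in kb (x axis) and gene (y axis), with the kind of place as the shape and a fibroblast peak as the fill. The open symbols are the 9 peaks without a fibroblast peak, 8 of them away from any start.

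Regions of 3 genes are shown, the highest-ranked in WT at each of Pth1r, Gli2 and Gli3 among those away from a start and without a fibroblast peak. Each is 201 bases of mm9 around the WT summit, on the gene's strand, with capitals for a match to the 4 motifs as above.
Pth1r, mm9 chr9:110635439-110635639, minus strand: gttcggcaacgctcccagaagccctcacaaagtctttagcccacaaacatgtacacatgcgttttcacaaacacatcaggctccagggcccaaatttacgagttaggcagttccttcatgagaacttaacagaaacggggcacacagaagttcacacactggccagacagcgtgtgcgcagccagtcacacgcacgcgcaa
Gli2, mm9 chr1:120944519-120944719, minus strand: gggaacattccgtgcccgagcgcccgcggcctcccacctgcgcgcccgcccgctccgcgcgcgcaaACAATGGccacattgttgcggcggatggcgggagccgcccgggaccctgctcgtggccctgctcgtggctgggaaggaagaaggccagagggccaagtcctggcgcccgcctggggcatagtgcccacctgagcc
Gli3, mm9 chr13:15716288-15716488, plus strand: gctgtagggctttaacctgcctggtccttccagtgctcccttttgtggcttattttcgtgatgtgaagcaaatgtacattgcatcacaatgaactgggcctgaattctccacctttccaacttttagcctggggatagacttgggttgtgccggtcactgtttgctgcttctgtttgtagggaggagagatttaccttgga

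The Gli2 region lay in an intron 5.58 kb into the gene and held a SOX match, which 2.03% of 33369 WT summit windows held. Its ranks were in the top 68.0% of the list for replicate 1, 42.9% for replicate 2, 26.2% for WT and 44.1% for deletion cells. A second Gli2 region without a fibroblast peak, about 125 kb into the gene, was in the top 17.2% of the list for replicate 1, 28.3% for replicate 2, 27.4% for WT and 57.6% for deletion cells, and in replicate 1 it was the highest-ranked peak of the window. The Gli3 region, 161 kb into the gene, held none of the motifs. Its ranks were in the top 39.9%, 57.6%, 29.1% and 49.8% in the same order. The other Gli3 regions were next to it at 162 kb, and downstream of the gene at 279 and 344 kb. Among all 31 summit windows, an AP-1 match was in 3, a SOX match in 1, and a GLI or RUNX match in none. Over all WT windows the shares were 4.57% for AP-1, 0.189% for GLI and 3.32% for RUNX.

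Fibroblasts had few peaks of their own at these genes. Of the 37 fibroblast peaks, 7 had no counterpart in replicate 1, WT or deletion cells, or 18.9% (7.96–35.2), beside 23.0% of the whole fibroblast list. Gli2 held 6 of the 7, 1 of them upstream from −90.825 to −90.386 kb and 5 in introns 76.97 to 118.455 kb into the gene. The other was upstream of Pth1r, within 1 kb of a WT and a deletion peak that it did not overlap. All 7 were weak, in the top 72.6% to 98.3%.

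WT peaks that were missing from the E160 and E308 deletion list were weak at these genes. Of 64 WT peaks in the windows, 25 overlapped no deletion peak, or 39.1% (27.1–52.1), and 37.2% of the whole WT list had none. Among the higher-scoring 50% of WT peaks, 0 of 31 were without a deletion peak (exact 95% CI, 0 to 11.2%), beside 2.57% of the list. Among the lower-scoring 50%, 25 of 33 were, or 75.8% (57.7–88.9), beside 72.5%. The deletion list was the shorter, with 25230 peaks against 33392. With equal numbers of highest-scoring peaks in each list, 32 of the 64 WT peaks remained in the windows, and 3.12% of these had no deletion peak. The share of the whole WT list at this setting is not given here. Weak WT peaks were removed at this setting, so whether list length accounts for the 39.1% was not tested. In the other direction, 2 of the 45 deletion peaks lacked a WT peak, or 4.44% (0.543–15.1), beside 1.12%.

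Gli3 had the most WT peaks missing from the deletion list, 10 of 19, in the top 68.7% to 99.0% of WT. Of the 10, 7 were also found in a chondrocyte replicate and 4 in both. These 4 lay in a cluster downstream of the gene, from 339.665 to 343.75 kb, where replicate 1 had a peak in its top 30.9% and replicate 2 in its top 68.0%. The other 3 were found in replicate 1 alone, and those 82.213 to 82.574 and 83.334 to 83.642 kb into the gene flanked a deletion peak that overlapped neither. At the other members, 2 of the 15 WT peaks missing from the deletion list were found in a replicate, both at Mef2c.

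Other genes of both pathways, taken from lists of 20, were read for the same promoter calls at the 5′ end. Of 19 further Hedgehog genes that could be placed, 10 were acetylated in replicate 1, 12 in replicate 2, 12 in WT, 11 in deletion cells and 11 in fibroblasts, and 17 had H3K4me2. Beside these counts, the shares of all genes were 44.2% for replicate 1, 43.1% for replicate 2 and 50% for WT. The shares were 47.1% for deletion cells, 47.5% for fibroblasts and 66.3% for H3K4me2. Smo, the signal transducer, the co-receptors Boc, Cdon and Gas1 and the Gli inhibitor Sufu were marked in all 6 lists. Scube2, Hhip and Kif7 had H3K4me2 and no H3K27ac in any list, a pattern found at 14.5% of all genes. Hhip, like Ptch1, is a Hedgehog target that restrains the pathway. Shh and Dhh, the other Hedgehog ligands, had no mark in any list.

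Of 18 further hypertrophy and mineralization genes, 10 were acetylated in replicate 1, 11 in replicate 2, 13 in WT, 7 in deletion cells and 7 in fibroblasts, and 15 had H3K4me2, with the deletion list shorter than the WT list as given above. The shares of all genes beside these counts were those given above for the further Hedgehog genes. Foxa2, Mmp9 and Alpl (tissue-nonspecific alkaline phosphatase), 3 of 18, had H3K4me2 and no chondrocyte H3K27ac, beside 16.0% of all genes. Ihh, Col10a1 and Mmp13 were in this class too. Runx3, Dlx5, Enpp1 and Panx3, 4 of 18, were acetylated in both chondrocyte replicates and not in fibroblasts, beside 1.65% of all genes. When every start was counted, Dlx5, Enpp1 and Panx3 remained, 3 of 18 beside 1.63%. Enpp1 had no peak in WT or deletion cells, Panx3 none in deletion cells, and Runx3 none in deletion cells at the 5′ end. Mef2d and Phospho1 were marked in fibroblasts and not in replicate 1, but both were marked in replicate 2 and WT, and Mef2d also in deletion cells. No gene of this list was acetylated in fibroblasts alone. Ibsp had no mark. Runx2 and Hdac4 have more than 1 gene model under their name in the mm9 annotation, and Disp1 none, so these were not placed.

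Ihh, Pthlh, Col10a1, Mmp13 and Gli1 shared their pattern over any start, H3K4me2 in chondrocytes and nothing else, with 2623 other genes each, or 14.5% of all, and Scube2, Hhip, Kif7, Foxa2, Mmp9 and Alpl were among them. Pth1r, Mef2c, Ptch1, Gli2 and Gli3 shared theirs, a mark in all 6 lists, with 7171 other genes each, or 39.6%.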

How the data were processed

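H3K27ac and H3K4me2 ChIP-Seq of primary mouse cells was analysed from 6 deposited peak lists, 1 per library, and the input library was not analysed here. According to the methods and processing notes of the study, reads were cleaned with fastp, mapped with Bowtie2 2.4.4 to mm9, and peaks were called with MACS2 2.2.4 against input. Replicates were not pooled. The authors deposited a score for each peak in every list. For replicate 2, WT and deletion cells the deposited files also gave the fold enrichment and the −log10 p-value and −log10 q-value of each peak, and there the score was 10 times the −log10 q-value. The lists of replicate 1, H3K4me2 and fibroblasts had a shorter format, like that of earlier MACS releases, with scores from 50, against scores from 13 in replicate 2 and 20 in WT and deletion cells, so weak peaks may have been called differently in both kinds of list. Scores were used only to rank peaks within a list. A missing peak says only that none was called.

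Peaks on the 19 autosomes and chromosome X were placed against GENCODE vM1 (mm9) or, for replicate 2, RefSeq (GRCm38) genes, without conversion between builds. A promoter peak lay within 1 kb of a TSS, a window was the gene with 100 kb on each side, and peaks overlapped when they shared 1 bp, or lay within 1 kb by distance from the TSS where replicate 2 was involved. Named genes were the 10 members, the genes at whose starts their window peaks lay, and members of fixed lists by their class. The members and lists were chosen with earlier results of these data known. Intervals are 95% Clopper-Pearson intervals. Read depth was not given in the sources used here. Motifs were searched as exact letters on both strands. Python 3.11.15, pandas 2.3.3, numpy 2.4.6, scipy 1.17.1 and matplotlib 3.10.9 were used, and counting was tested on simulated peaks. Alternatives were another promoter width or any TSS, other window sizes, a reciprocal overlap of 50%, lists of equal length, lists reduced to their higher-scoring 50%, and another chondrocyte library. The values of 1 gene of the further Hedgehog list are not reported here.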

Additional observations from a re-analysis of the deposited data

How the results depend on the processing

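Of 91 values recomputed under another setting, 61 stayed within the limits set for them and 30 moved. When any annotated TSS was counted, 5 promoters were marked in replicate 1, replicate 2, fibroblasts, WT and deletion cells, in place of 2 in each. With the higher-scoring 50% of each list, 1 promoter was marked in replicate 1 and 5 in H3K4me2, and the windows held 25 peaks of replicate 1, 21 of replicate 2, 82 of H3K4me2, 18 of fibroblasts, 31 of WT and 25 of deletion cells. With equal numbers of peaks in each list, 4 promoters had H3K4me2, 3 of them H3K4me2 alone, and the windows held 44 H3K4me2 and 32 WT peaks. With 200 kb on each side, the windows held 100 peaks of replicate 1, 68 of replicate 2, 239 of H3K4me2, 57 of fibroblasts, 110 of WT and 80 of deletion cells, and with 50 kb they held 99 of H3K4me2. Under a 50% reciprocal overlap, 85.3% of H3K4me2 peaks had no replicate 1 peak, 76.7% of replicate 1 peaks no fibroblast peak, and 54.7% of WT peaks no deletion peak. With equal numbers of peaks, the share of H3K4me2 peaks without replicate 1 was 54.5% and that of WT peaks without a deletion peak 3.12%. The latter was 19.4% in the higher-scoring 50% of both lists. These are shares of window peaks, and those of the whole lists under a 50% reciprocal overlap or with reduced lists are not given here. When either chondrocyte replicate was left out, the number of H3K4me2-only promoters was 6 each time, and that of promoters acetylated in the remaining replicate and not in fibroblasts was 0 each time. No paired analysis was possible because no result comes from a test, and chondrocyte H3K27ac, with 2 libraries, is compared with groups of 1 library. Depth is unknown, so the calling of weak peaks cannot be compared between libraries.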
